A study of Mus musculus with 36 samples.

Results

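Striatal gene expression after repeated morphine was compared with that after saline in the mouse strain C57BL/6J. The comparison rests on 6 of the 36 arrays of the series, 3 from chronically treated mice and 3 from saline-treated mice. Of the 45037 probe sets that are not array controls, 25792 (57.3%) had a log2 signal above 6.64 on at least 3 of these 6 arrays and were tested. They include 21728 that the annotation pairs with a single gene, which together cover 12747 genes.

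Both groups were adult male C57BL/6J mice aged 8 to 10 weeks, an inbred strain with no introduced allele. The chronic group received morphine hydrochloride under the skin 3 times a day in rising doses. Each injection held 10 mg/kg on the first day, 20 mg/kg on the next and 40 mg/kg from day 3 to day 4, and a single closing injection of 40 mg/kg followed on day 5. The saline group was injected with vehicle on the same timetable. Tissue was taken 4 h after the last injection and comprised the rostral caudate and putamen with the nucleus accumbens. Each group held 9 mice, and each array carried RNA pooled from 3 of them, so the spread between arrays is that between pools and not between single animals. The 3 other strains, 129P3/J, DBA/2J and SWR/J, went through the same treatment, and a further C57BL/6J group received saline for 4 days and a single dose of 20 mg/kg morphine.

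Morphine acts mainly on the µ opioid receptor, a Gi-coupled receptor that is dense in patches of the striatum, where it lowers cAMP formation and neuronal firing. Opioids also stimulate the release of glucocorticoids from the adrenal gland, and the striatum, built largely of GABAergic medium spiny projection neurons and crossed by myelinated fibre bundles, holds the glucocorticoid receptor in neurons and glia. In whole tissue, fewer cells of a type and less RNA per cell cannot be told apart.

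The dissected tissue carried the markers of striatum on all 6 arrays. Penk, the precursor of enkephalins, had log2 signals between 12.15 and 12.29, Ppp1r1b, the dopamine-regulated phosphatase inhibitor DARPP-32, between 11.08 and 11.47, and Drd2, the D2 dopamine receptor, between 9.97 and 10.37. Saline replicate 1 correlated with the other 5 arrays at a Pearson r over the tested probe sets of 0.916 to 0.952, its lowest being with chronic replicate 3, and had an excess of 3′ over 5′ signal, with a log2 ratio of 0.72 for the Gapdh control probe sets against -0.08 to 0.06 on the other 5 arrays, and of 1.29 for Actb against 0.24 to 0.48. Chronic replicate 2 was closer to saline replicate 3 (r = 0.984) and saline replicate 2 (r = 0.972) than to chronic replicates 1 and 3 (r = 0.966 and 0.955).

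Markers of tissue other than striatum also differed between arrays, and the part of dissection in this was not tested. Slc17a7, the vesicular glutamate transporter of cortical excitatory neurons, had log2 signals of 7.50, 7.52 and 9.62 on saline replicates 1 to 3 and of 8.75, 9.66 and 9.72 on chronic replicates 1 to 3. Saline replicate 3 therefore lay with the chronic arrays. Of the 16 measured genes of the cortical excitatory list, 12 were higher and 4 lower in the chronic mean, with a median log2 difference of 0.36, while the summed signal of the list ranged from 9499 to 10977 in saline and from 9292 to 11403 in chronic mice. Ttr, the transthyretin gene that marks choroid plexus, ranged from 10.14 to 12.58 in saline and from 9.21 to 12.66 in chronic mice.

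Chronic morphine changed 522 probe sets at an adjusted p under 0.05, which is 2.02% of those tested. Of these, 162 were higher (0.628%) and 360 lower (1.4%), and 5193 had an unadjusted p under 0.05. The test was limma's moderated test of the 6 arrays, with the spread of each probe set estimated over all 12 groups of the series, and with p-values adjusted by the Benjamini-Hochberg method over the 25792 probe sets. The median log2 difference was 0.62 among the higher probe sets and -0.57 among the lower ones. In 153 of the 162 higher and 343 of the 360 lower probe sets the 3 chronic arrays did not overlap the 3 saline arrays. Selection for a large difference against the spread favours such separation, so these counts are no added support. Among all genes tested, the chronic arrays lay all above saline for 5.78% and all below for 10.4%. A change of at least 2-fold was reached by 44 probe sets.

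The number depended on the estimate of the spread and on single arrays. The median within-group SD of the tested probe sets was 0.1669 in saline and 0.1804 in chronic C57BL/6J mice. In the other 10 groups it was 0.1223 to 0.1665, so the spread estimated over all groups drew on groups with less scatter than the 2 compared. A fit of the 6 arrays alone called 0 probe sets (2520 at an unadjusted p under 0.05), and array weights left 230. Leaving out chronic replicate 2 raised the count to 3018 and leaving out saline replicate 3 raised it to 1132, whereas it fell to 80 without saline replicate 1, 137 without saline replicate 2, 61 without chronic replicate 1 and 24 without chronic replicate 3. Whichever of the 6 arrays was left out, 17 probe sets stayed past the threshold, and they covered 16 genes. With a gene taken by its brightest probe set these gave 15 genes, which are named below. Fzd2 was reached only by a dimmer probe set.

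**Figure D1:**
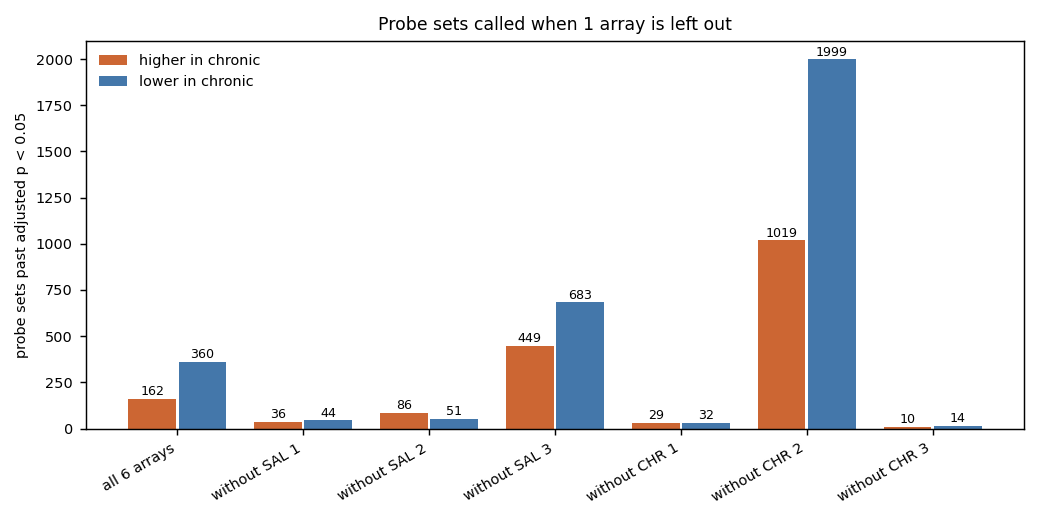
Number of probe sets with an adjusted p under 0.05 in the comparison of chronic morphine with saline in C57BL/6J (vertical axis, linear), for all 6 arrays and after leaving out each saline (SAL) or chronic (CHR) replicate in turn (horizontal axis). Bars show probe sets higher (orange) and lower (blue) in chronic mice, from 10 higher and 14 lower without chronic replicate 3 to 1019 higher and 1999 lower without chronic replicate 2.

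With a gene represented by its brightest tested probe set, 74 of the 12747 genes were higher (0.581%) and 229 lower (1.8%). These shares are the reference for the count of every list below. The 3 chronic arrays lay above all 3 saline arrays for 5.78% of genes and below them for 10.4%. The median log2 difference over all genes was -0.03.

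Some glucocorticoid-responsive genes rose. Of the 33 measured members of that list, 7 were higher and 0 lower at the threshold, 30 had a positive difference, and the median log2 difference was 0.24. The list holds genes that the study named for morphine on these arrays, so its direction is not independent evidence.

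Fkbp5, a co-chaperone that damps the glucocorticoid receptor, had log2 signals of 9.01, 8.81 and 8.95 on the saline arrays and of 9.63, 9.66 and 9.73 on the chronic arrays. The groups were well apart, and the rise of 0.75 (SE 0.092, adjusted p = 9.6e-05) corresponded to 1.68-fold. Its other probe set rose by 0.83. Zbtb16, a zinc finger transcription repressor, had the largest rise among genes past the threshold, from 7.88, 8.11 and 8.78 to 9.96, 9.41 and 10.63, a log2 difference of 1.75 (SE 0.29, adjusted p = 0.00333). Its 3 probe sets rose by 0.50 to 1.75, and the one at 0.50 did not pass the threshold (adjusted p = 0.243).

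Sult1a1, a phenol sulfotransferase, went from 7.39, 7.20 and 8.01 to 8.90, 8.60 and 9.14, a rise of 1.35 (SE 0.22, adjusted p = 0.00312). Plin4, a lipid droplet coat protein, went from 6.98, 7.55 and 8.03 to 8.75, 8.81 and 8.94, a rise of 1.31 (SE 0.22, adjusted p = 0.00374). Both groups of arrays were separate for each of these genes.

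Tsc22d3, the glucocorticoid-induced leucine zipper, rose by 0.76 (SE 0.15, adjusted p = 0.0107), and each of its 4 probe sets was higher in chronic mice, by 0.33 to 1.10. Fzd2, a Wnt receptor, rose by 0.52 (adjusted p = 0.017) on the brightest of its 3 probe sets. The dimmer ones rose by 0.86 (adjusted p = 0.00594) and 1.04 (adjusted p = 0.00343). The one at 1.04 stayed past the threshold whichever array was left out. The clock gene Per1 rose by 0.42 (adjusted p = 0.0461). Several genes that the study named did not pass on their brightest probe set. Sgk1, a kinase of ion transport, had a difference of 0.40 (SE 0.15, adjusted p = 0.119), Sgk3, a related kinase, one of 0.35 (SE 0.15, adjusted p = 0.178) on its brightest probe set, Nfkbia, the inhibitor of NF-κB, one of 0.18 (SE 0.089, adjusted p = 0.268) and the transcription factor Cebpd one of 0.06 (SE 0.28, adjusted p = 0.924). Another probe set of Sgk3 rose by 0.71 (SE 0.16, adjusted p = 0.0242) with separate groups, and one more had a difference of 0.28 (adjusted p = 0.222). The receptor gene itself, Nr3c1, had a difference of -0.27 (SE 0.13, adjusted p = 0.225).

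The count of 7 became 4 without saline replicate 1 and 3 without chronic replicate 3, and 6 or 7 without any other single array. Averaged over members, the list was lower on each saline array (mean centred log2 of -0.26, -0.14 and -0.11) than on each chronic array (0.15, 0.15 and 0.20).

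**Figure D2:**
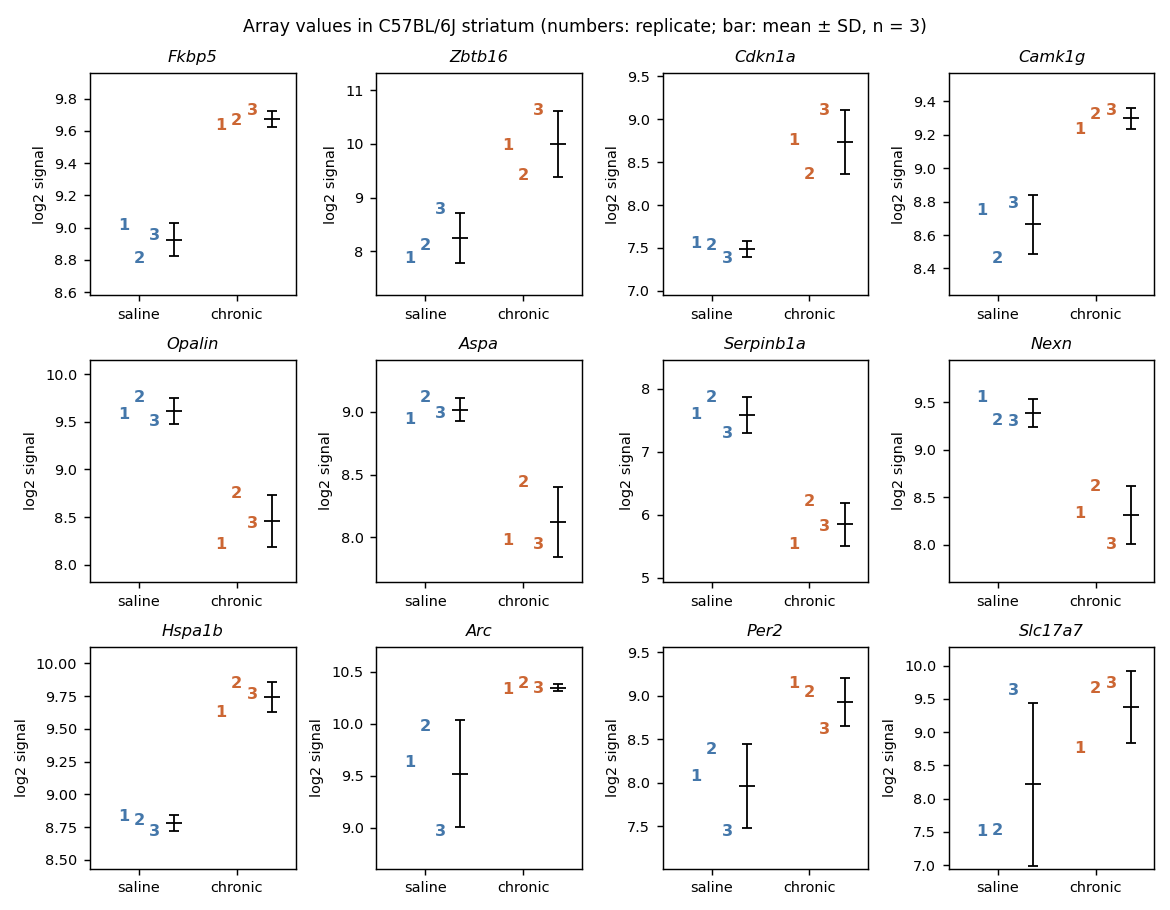
Log2 signal (vertical axes, each scaled to its gene) of 12 genes on the 3 saline and the 3 chronic arrays of C57BL/6J. Numerals mark the replicates and bars the mean ± SD of 3 arrays. Fkbp5, Zbtb16, Cdkn1a, Camk1g, Hspa1b, Arc and Per2 were higher on all chronic arrays, Opalin, Aspa, Serpinb1a and Nexn were lower on all of them, and Slc17a7 overlapped because saline replicate 3 read 9.62.

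Cdkn1a and Camk1g rose as steadily. Cdkn1a, the cyclin-dependent kinase inhibitor p21, went from 7.55, 7.53 and 7.38 to 8.75, 8.36 and 9.10, a rise of 1.25 (SE 0.18, adjusted p = 0.00112). Its dimmer probe set had a difference of -0.12 (adjusted p = 0.828), so the probe sets disagreed. Cdkn1a was the only one of 15 measured p53-responsive genes past the threshold. Camk1g, a calcium/calmodulin-dependent kinase, went from 8.74, 8.46 and 8.79 to 9.23, 9.32 and 9.35, a rise of 0.63 (SE 0.10, adjusted p = 0.00312), and was alone among 15 measured calcium/calmodulin kinase genes. Gm19439, a predicted gene, rose by 1.47 (SE 0.22, adjusted p = 0.00112).

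A number of oligodendrocyte and myelin genes fell. Of 36 measured members of that list, 0 were higher and 12 lower at the threshold, 32 had a negative difference, and the median log2 difference was -0.37 against -0.03 for all genes. The 12 were Serpinb1a, Opalin, Aspa, Pllp, Ugt8a, Olig2, Il33, Evi2a, Fa2h, Olig1, Cnp and Qdpr. Of these, Serpinb1a entered the test only through saline, where it was high. As with the glucocorticoid list, the study named some members, Olig1, Olig2, Ugt8a and Gjb1, from arrays of this series, so the direction is not independent evidence.

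Opalin, a transmembrane protein of the paranodal myelin loop, had the lowest adjusted p of the whole comparison. Its log2 signals were 9.58, 9.76 and 9.50 on the saline arrays and 8.21, 8.75 and 8.43 on the chronic arrays, a difference of -1.15 (SE 0.14, adjusted p = 9.43e-05) or 2.22-fold. Aspa, which cleaves N-acetylaspartate in oligodendrocytes, went from 8.94, 9.12 and 8.99 to 7.98, 8.44 and 7.94, a difference of -0.90 (SE 0.13, adjusted p = 0.00112). In both genes chronic replicate 2 was the chronic array nearest to saline.

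The same order was seen for Pllp, a myelin raft protein, which went from 9.43, 9.62 and 9.62 to 8.60, 8.87 and 8.54, a difference of -0.89 (SE 0.12, adjusted p = 0.000188). Serpinb1a, a serine protease inhibitor, went from 7.58, 7.86 and 7.29 to 5.52, 6.21 and 5.81. Its difference was -1.73 (SE 0.29, adjusted p = 0.00333), but all its chronic values lay below the filter of 6.64, so that it entered the test only through saline and the size of its fall rests on values below the filter. Ugt8a, the enzyme that makes the myelin lipid galactosylceramide, fell by 0.82 (SE 0.14, adjusted p = 0.00492) and Fa2h, which hydroxylates the fatty acids of that lipid, by 0.49 (SE 0.11, adjusted p = 0.0279).

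The lineage transcription factors Olig1 and Olig2 fell by 0.41 (adjusted p = 0.0202) and 0.60 (adjusted p = 0.0316). Genes of structural myelin proteins gave mixed values. Mbp, myelin basic protein, had a difference of 0.06 (SE 0.075, adjusted p = 0.693), Mobp one of -0.15 (SE 0.11, adjusted p = 0.483), Mag one of -0.30 (SE 0.12, adjusted p = 0.176) and Mog one of -0.50 (SE 0.17, adjusted p = 0.111), whereas Cnp, the myelin phosphodiesterase, fell by 0.39 (adjusted p = 0.0481) on its brightest probe set, with 1 of its 3 probe sets at 0.08. Gjb1, connexin 32, had a difference of -0.39 (SE 0.16, adjusted p = 0.162). No oligodendrocyte precursor gene of the 13 measured passed, and the 2 of largest difference were Tnr at -0.35 (SE 0.18, adjusted p = 0.268) and Gpr17 at -0.30 (SE 0.14, adjusted p = 0.213).

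The summed signal of the oligodendrocyte list was 51280 to 58015 on the saline arrays and 42804 to 50212 on the chronic arrays, which do not overlap. This was not particular to the list. The sterol, sphingolipid, histone and fatty acid oxidation lists also had lower sums on all chronic arrays. For fatty acid oxidation, where no gene passed, they were 15476.1 to 16015.2 in saline and 13895.5 to 15332 in chronic mice. The number of lower genes was 7 without saline replicate 1, 5 without saline replicate 2, 5 without chronic replicate 1, 4 without chronic replicate 3 and 20 without chronic replicate 2. The septal area list, whose markers neighbour the dissected region, had a negative difference in all 7 measured genes (median -0.29), and none of them passed. Its medians in 129P3/J, DBA/2J and SWR/J were -0.24, -0.27 and -0.25. The part of dissection in the oligodendrocyte result was not tested.

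**Figure D3:**
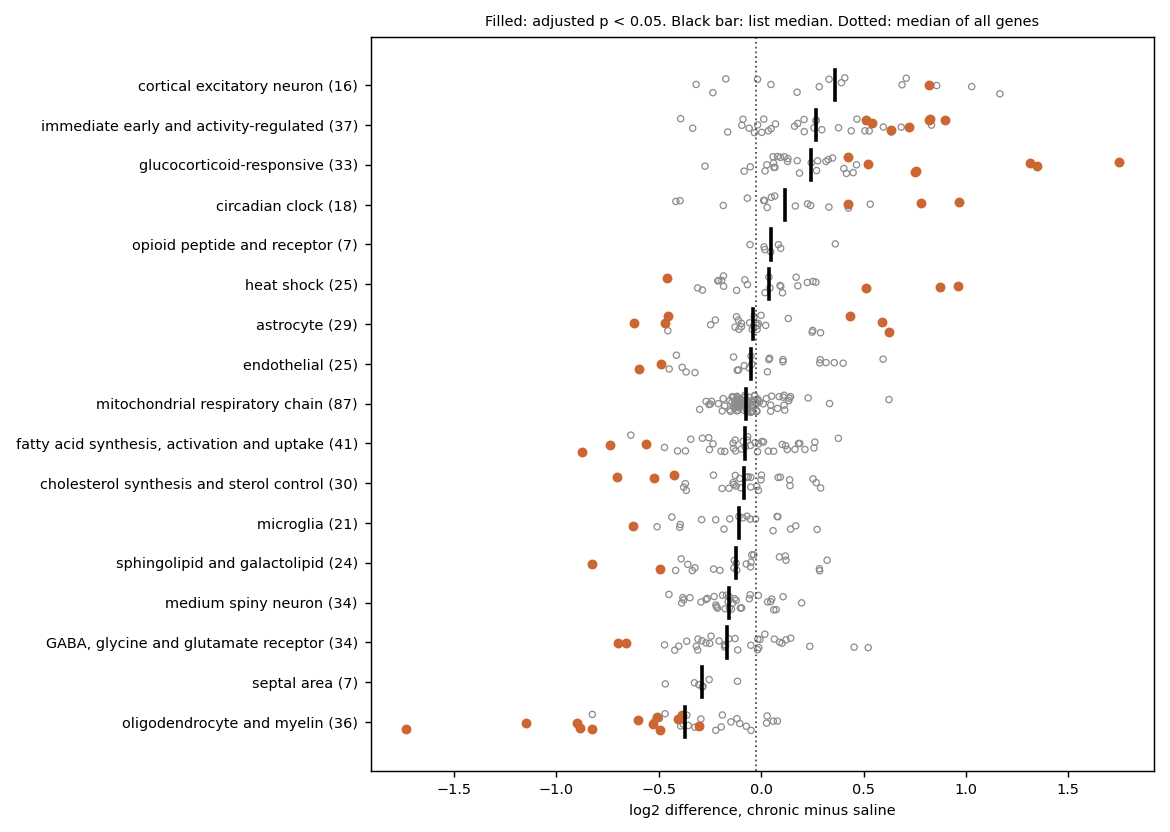
Log2 difference between chronic morphine and saline in C57BL/6J (horizontal axis) for each measured member of 17 gene lists, with the number measured in brackets. Filled points passed an adjusted p under 0.05, open points did not, black bars are list medians and the dotted line is the median of all genes at -0.03. The oligodendrocyte list had the lowest median at -0.37, and the filled points of the glucocorticoid list all lay to the right of 0.

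Immediate early and activity-regulated genes were higher in part. Of 37 measured members, 7 were higher and 0 lower at the threshold, 29 had a positive difference and the median log2 difference was 0.27. The 7 were the nuclear receptors Nr4a3 and Nr4a2, the synaptic effector Arc, the MAP kinase phosphatases Dusp5, Dusp6 and Dusp14, and Ier3, an early response survival gene.

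Arc had log2 signals of 9.63, 9.97 and 8.96 on the saline arrays and of 10.32, 10.38 and 10.33 on the chronic arrays, a rise of 0.83 (SE 0.20, adjusted p = 0.0309). Nr4a3 went from 8.75, 8.14 and 7.81 to 9.12, 8.96 and 9.31, a rise of 0.90 (SE 0.19, adjusted p = 0.0192), which its other probe set, at -0.20, did not share. Dusp14 went from 9.77, 9.98 and 9.91 to 10.54, 10.51 and 10.52, a rise of 0.63 (SE 0.15, adjusted p = 0.0296). The chronic arrays were close together for Arc and Dusp14, and the wider scatter lay among the saline arrays.

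Saline replicate 3 read low for much of this list. The early gene Fos had log2 signals of 8.65, 9.01 and 7.47 on the saline arrays against 9.04, 8.96 and 9.18 on the chronic arrays, so that its groups overlapped and its difference of 0.68 (SE 0.27, adjusted p = 0.158) did not pass. Egr2 behaved likewise, at 8.81, 8.83 and 6.95 against 9.08, 8.80 and 8.51 (difference 0.60, SE 0.36, adjusted p = 0.362). Junb had a difference of 0.83 (SE 0.25, adjusted p = 0.0666), Egr1 one of 0.21 (SE 0.12, adjusted p = 0.349) and Fosb one of 0.27 (SE 0.16, adjusted p = 0.348).

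Cortical markers moved with the group means as well. Nr4a2, which is also a gene of claustrum and deep cortex and is on the cortical list, went from 7.15, 7.04 and 7.85 to 8.07, 8.17 and 8.26, a rise of 0.82 (SE 0.22, adjusted p = 0.0431), with saline replicate 3 the highest saline array as for Slc17a7. For Arc, in contrast, saline replicate 3 was the lowest. The other cortical markers Neurod6 and Tbr1 had differences of 1.03 (SE 0.50, adjusted p = 0.243) and 0.86 (SE 0.39, adjusted p = 0.218). Their part in the rise of the activity-regulated genes was not tested. The count of 7 was 1 without saline replicate 1, 4 without saline replicate 2, 5 without saline replicate 3, 11 without chronic replicate 2 and 0 without chronic replicate 1 or chronic replicate 3.

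**Figure D4:**
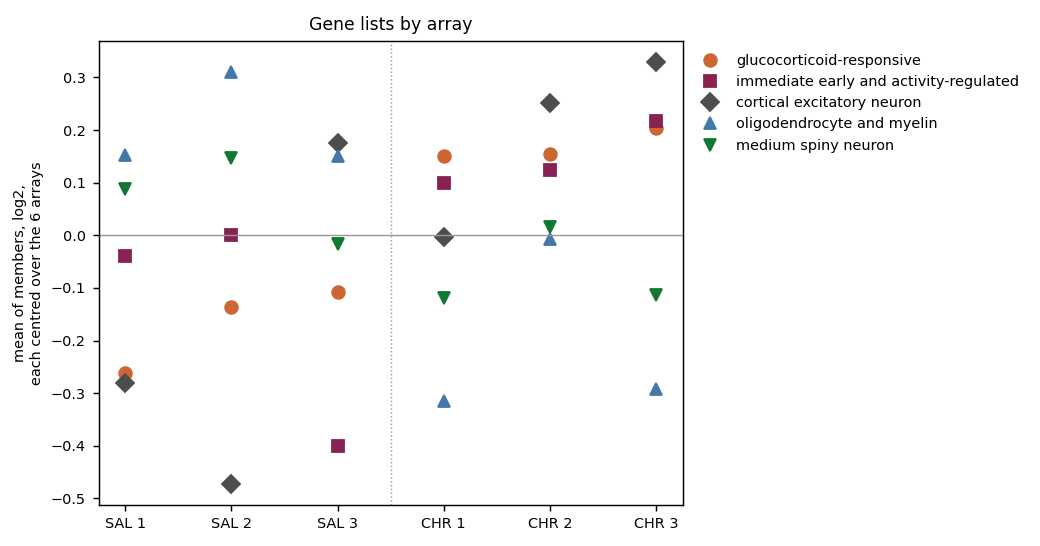
Mean log2 signal of the members of 5 gene lists on each array (vertical axis), each member centred over the 6 arrays, with saline replicates (SAL) left and chronic replicates (CHR) right of the dotted line. The glucocorticoid list was between -0.26 and -0.11 on saline and between 0.15 and 0.20 on chronic arrays, while for the cortical excitatory list saline replicate 3, at 0.18, lay above chronic replicate 1.

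Clock genes were higher in 3 of 18 measured cases and lower in 0, with a median log2 difference of 0.12. Over all genes 0.581% were higher and 1.8% lower. Per2, a repressor of the clock, went from 8.07, 8.38 and 7.43 to 9.13, 9.03 and 8.61, a rise of 0.97 (SE 0.22, adjusted p = 0.0244), and its other probe set had a difference of 0.22 (adjusted p = 0.602). Ciart, a further circadian repressor, went from 7.49, 7.21 and 7.49 to 8.47, 8.06 and 8.01, a rise of 0.78 (SE 0.18, adjusted p = 0.0293). Per1 was the remaining one. Bhlhe40 had a difference of 0.43 (SE 0.13, adjusted p = 0.0645) and the output gene Dbp one of 0.07 (SE 0.18, adjusted p = 0.866). The count was 0 without saline replicate 1, chronic replicate 1 or chronic replicate 3, and 1 without saline replicate 2 or saline replicate 3.

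Heat shock genes split. Of 25 measured members, 3 were higher (Hspa1b, Hspa1a and Hspb1) and 1 was lower (Hspa4), and the median log2 difference was 0.04. Hspa1b, an inducible HSP70, went from 8.83, 8.80 and 8.71 to 9.62, 9.84 and 9.76, a rise of 0.96 (SE 0.17, adjusted p = 0.00492), and its 3 probe sets rose by 0.96 to 1.23. Hspa1a, its neighbour on the chromosome, went from 7.65, 7.59 and 7.33 to 8.38, 8.28 and 8.53, a rise of 0.87 (SE 0.18, adjusted p = 0.0129). Neither gene overlapped between the groups.

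These neighbours are near-identical copies, so probe sets of one can take up transcripts of the other and their signals are not separate evidence. The promoter windows of RefSeq (build GRCm38.p6, 250 bases before to 50 after the start, both on the minus strand) are shown because the members that rose together share them almost letter for letter. They are identical at 296 of 300 positions, and capitals mark the 4 positions that differ. Hspa1a lies at chr17:34972107-34972406 and Hspa1b at chr17:34959189-34959488.
Hspa1a: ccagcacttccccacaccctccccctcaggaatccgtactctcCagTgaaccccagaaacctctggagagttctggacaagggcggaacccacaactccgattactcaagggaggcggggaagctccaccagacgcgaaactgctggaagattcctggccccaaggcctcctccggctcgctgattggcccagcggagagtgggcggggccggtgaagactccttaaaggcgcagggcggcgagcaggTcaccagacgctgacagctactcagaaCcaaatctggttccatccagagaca
Hspa1b: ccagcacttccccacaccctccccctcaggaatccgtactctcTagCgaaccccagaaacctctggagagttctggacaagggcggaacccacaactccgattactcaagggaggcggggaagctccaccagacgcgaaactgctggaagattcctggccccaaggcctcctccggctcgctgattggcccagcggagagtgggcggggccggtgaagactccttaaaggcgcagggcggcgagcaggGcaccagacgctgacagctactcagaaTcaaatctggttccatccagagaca

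Heat shock elements are built of alternating inverted units. A pair of units can read TTCNNGAA, found in 8.52% of the 32851 promoter windows, or GAANNTTC, found in 7.86%, and the element of 3 alternating units, which holds both pairs, was in 0.603%, with both strands searched. Of the 22 measured heat shock genes with a window, 5 held TTCNNGAA, 12 held GAANNTTC and 4 held the 3-unit element. The 4 with 3 units were Hspd1, Hspe1, Hsph1 and Chordc1, whose log2 differences of -0.18, -0.12, -0.21 and 0.10 did not pass. Hspa1a, Hspa1b and Hspb1 each held GAANNTTC, at position -104 from the start in the first pair, and held neither TTCNNGAA nor the 3-unit element in these 300 bases. GAANNTTC was searched only after the data were seen, and the windows of Hspa1a and Hspa1b are near-identical, so these matches are no support. Some of the genes had several windows, whereas the shares count windows.

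Hspb1, a small heat shock protein, rose by 0.51 (SE 0.11, adjusted p = 0.0211), and Hspa4, an HSP110-type exchange factor, fell by 0.46 (SE 0.11, adjusted p = 0.0306) with its 4 probe sets split by sign. Dnajb1, the HSP40 partner of HSP70, had a difference of 0.25 (SE 0.12, adjusted p = 0.223) on its brightest probe set and rose by 0.91 (SE 0.19, adjusted p = 0.0183) on the dimmer one. On the dimmer one saline replicate 1 read 7.37 against 8.56 and 8.75 on saline replicates 2 and 3. The lowest rise with 1 array left out was 0.48. The constitutive chaperones Hspa8 and Hsp90aa1 had differences of 0.02 (SE 0.089, adjusted p = 0.929) and -0.08 (SE 0.075, adjusted p = 0.574). With all probe sets of a gene averaged, 5 heat shock genes were higher in place of 3, and without chronic replicate 1 or chronic replicate 3 the number was 1.

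Sterol synthesis genes were lower in 3 of 30 measured cases, beside 1.8% of all genes, and higher in 0, with a median log2 difference of -0.08. The lower ones were Hmgcs1 and Idi1, early enzymes of the mevalonate pathway, and Cyp51, the lanosterol demethylase. Hmgcs1 went from 11.42, 11.55 and 11.23 to 10.80, 11.20 and 10.94, a fall of 0.42 (SE 0.10, adjusted p = 0.0296), with the same sign in its 4 probe sets. Idi1 fell by 0.52 (SE 0.11, adjusted p = 0.0202) and Cyp51 by 0.71 (SE 0.17, adjusted p = 0.0316). Sqle, squalene epoxidase, had a difference of -0.37 (SE 0.11, adjusted p = 0.0775), Vldlr one of -0.25 (SE 0.11, adjusted p = 0.207) and Sc5d, a late desaturase, one of -0.02 (SE 0.14, adjusted p = 0.947). The count was 0 without saline replicate 2, chronic replicate 1 or chronic replicate 3, 1 without saline replicate 1 and 5 without chronic replicate 2.

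Hmgcs1 was the only one of these 3 whose promoter window held TCACCCCA, the core of the sterol response element, which is present on either strand in 1.56% of all windows. The window, chr13:119690101-119690400 on the plus strand in GRCm38.p6, is shown with that match in capitals, as the sequence that carries the one match among the sterol genes that fell.
Hmgcs1: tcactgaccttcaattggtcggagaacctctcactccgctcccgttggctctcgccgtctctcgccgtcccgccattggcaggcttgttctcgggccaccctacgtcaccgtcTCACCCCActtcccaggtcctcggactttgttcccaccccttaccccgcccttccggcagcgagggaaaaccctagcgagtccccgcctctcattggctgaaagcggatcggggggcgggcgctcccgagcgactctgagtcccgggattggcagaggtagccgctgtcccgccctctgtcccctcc
Of the 26 measured glucocorticoid-responsive genes with a window, some with several windows, 5 held the core ACANNNTGT, which is in 6.85% of all windows. Among the members that rose, 5 had a window, and none of these genes held the core. TGACGTCA, the cAMP response element, was in 1.79% of windows and in none of the 28 measured activity-regulated genes with a window.

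Fatty acid genes were lower in 3 of 41 cases, beside 1.8% of all genes, and higher in 0 (median -0.08). Fabp7, the brain fatty acid binding protein of astrocytes, went from 10.07, 10.09 and 9.73 to 8.96, 9.24 and 9.07, a fall of 0.87 (SE 0.19, adjusted p = 0.0206). Acot1, an acyl-CoA thioesterase, fell by 0.74 (adjusted p = 0.0191) and Pltp, the phospholipid transfer protein, by 0.56 (adjusted p = 0.0461). Acsl3, an acyl-CoA synthetase, had a difference of 0.03 (SE 0.092, adjusted p = 0.863) on its brightest of 3 probe sets, fell by 0.54 (SE 0.12, adjusted p = 0.0244) on another and had one of -0.15 (adjusted p = 0.468) on the remaining one. None of the falls of Fabp7, Acot1 and Pltp was past the threshold without saline replicate 1, saline replicate 2, chronic replicate 1 or chronic replicate 3. Of 24 fatty acid oxidation genes and 87 genes of the mitochondrial respiratory chain, none passed, with medians of -0.07 and -0.07.

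The opioid system itself showed no called change. Of its 7 measured peptide and receptor genes none passed, and the median log2 difference was 0.05. Oprm1, the µ receptor, had log2 signals of 7.84, 7.69 and 7.49 in saline and of 7.93, 8.03 and 8.14 in chronic mice, a difference of 0.36 (SE 0.15, adjusted p = 0.177) without overlap. Oprk1, the κ receptor, had a difference of 0.02 (SE 0.15, adjusted p = 0.962), Oprl1, the nociceptin receptor, one of -0.05 (SE 0.092, adjusted p = 0.776) with 0.42 and 0.38 on its dimmer probe sets, Penk one of 0.05 (SE 0.077, adjusted p = 0.769) and Pdyn, the dynorphin precursor, one of 0.01 (SE 0.10, adjusted p = 0.955). Of 21 receptor effectors none passed. Oprd1, the δ receptor, had no tested probe set.

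Medium spiny neuron genes tended slightly downward without a call. Of 34 measured genes 0 passed, 27 had a negative difference and the median was -0.16. Medians in 129P3/J, DBA/2J and SWR/J were -0.14, -0.17 and -0.15. Averaged over members, the arrays overlapped, with a mean centred log2 of -0.02 on saline replicate 3 and 0.02 on chronic replicate 2. The members of largest difference were the sodium channel subunit Scn4b at -0.45 (SE 0.19, adjusted p = 0.17) and Ido1 at -0.39 (SE 0.13, adjusted p = 0.0861). Rgs9, which ends G protein signals in striatal neurons, had a difference of -0.29 (SE 0.085, adjusted p = 0.0616), while Drd1 was at -0.10 (SE 0.12, adjusted p = 0.684) and Drd2 at -0.18 (SE 0.10, adjusted p = 0.348). In the list of 14 interneuron genes none passed, and Pvalb, parvalbumin, had the largest difference, 0.77 (SE 0.28, adjusted p = 0.123).

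Single receptor and signalling genes passed. The GABA-A receptor subunit Gabrg1 went from 9.24, 9.05 and 8.83 to 8.40, 8.54 and 8.07, a fall of 0.70 (SE 0.18, adjusted p = 0.039), and the glycine receptor subunit Glra2 fell by 0.66 (SE 0.17, adjusted p = 0.0355). These were the 2 lower genes among 34 inhibitory and excitatory receptor genes, of which 0 were higher. Over all genes 1.8% were lower, so 2 calls say little about the receptors as a group. Grik2, a kainate receptor subunit, had a difference of -0.42 (SE 0.12, adjusted p = 0.0645).

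Cnr1, the CB1 cannabinoid receptor, fell by 0.53 (adjusted p = 0.0481), Npy5r, a neuropeptide Y receptor, by 0.54 (adjusted p = 0.0437) and Pde7b, a cAMP phosphodiesterase, by 0.41 (adjusted p = 0.0436). The other probe set of Cnr1 was at 0.23 and those of Pde7b at 0.01 and 0.21, so the probe sets of both genes disagreed. Hrh3, the presynaptic histamine receptor, rose by 0.44 (adjusted p = 0.0313) and Vipr2, a receptor for vasoactive intestinal peptide, by 0.44 (adjusted p = 0.0461). Of 16 RGS genes, which shorten G protein signals, Rgs10 fell by 0.40 (adjusted p = 0.0296) and Rgs5 by 0.58 (adjusted p = 0.0433), with 1 of the 4 probe sets of Rgs5 at 0.02. Sncaip, which binds α-synuclein, had a difference of -0.39 (SE 0.14, adjusted p = 0.132).

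The astrocyte list held calls in both directions. Among 29 astrocyte genes, 3 were higher, namely the connexin Gjb6 at 0.62 (adjusted p = 0.0291), Id3 at 0.59 (adjusted p = 0.0312) and Fgfr3 at 0.43 (adjusted p = 0.0419). A further 3 were lower, namely the water channel Aqp4 at -0.62 (adjusted p = 0.0244), the connexin Gja1 at -0.47 (adjusted p = 0.0279) and S100b at -0.45 (adjusted p = 0.0481), and the median was -0.04. The probe sets of Aqp4 disagreed, since the other pair had differences of 0.07 and 0.11, and 1 of the 6 for Gja1 was at 0.36. Saline replicate 1 read low on the Aqp4 probe set at 0.07, with 8.13 against 9.47 and 9.51 on saline replicates 2 and 3. The Gja1 probe set at 0.36 read 6.48 there against 8.64 and 8.87. With 1 array left out, their lowest differences were -0.38 and -0.40. With all probe sets of a gene averaged, 4 astrocyte genes were higher and 1 was lower.

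Among 25 endothelial genes the receptor tyrosine kinases Kdr and Tek fell by 0.60 (adjusted p = 0.0244) and 0.49 (adjusted p = 0.0111). One microglial gene of 21, Laptm5, fell by 0.62 (adjusted p = 0.0349) on its brightest probe set, while its others were at -0.35, 0.08 and 0.13. With 1.8% of all genes lower, calls this few are not read as a result about either cell type. The chemokine Cxcl12 fell by 0.68 (adjusted p = 0.0472). Slc16a1, the monocarboxylate transporter that oligodendrocytes and endothelium use for lactate, went from 9.23, 9.72 and 9.14 to 8.51, 8.78 and 8.19, a fall of 0.87 (SE 0.16, adjusted p = 0.00692).

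Of the 44 lists, 15 had no member past the threshold. Scattered single members of the others were Hsp90b1 at -0.37, Ankrd37 at -0.46, Efnb3 at -0.36, Rgma at 0.61, Cacnb2 at 0.47, Slc22a5 at -0.48, the histone H2bc21 at -0.55, the ribosomal Rpl12 at -0.68 and the tubulin Tubb2b at -0.45, each with an adjusted p between 0.0279 and 0.0482.

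Several of the largest changes belonged to no list. Nexn, an actin-binding protein, went from 9.55, 9.31 and 9.29 to 8.33, 8.61 and 8.00, a fall of 1.07 (SE 0.16, adjusted p = 0.00112). Phldb1, a microtubule-anchoring protein, went from 9.77, 9.88 and 9.69 to 8.78, 9.22 and 8.45, a fall of 0.96 (SE 0.16, adjusted p = 0.00295). Both were past the threshold in every fit that left out an array, as were Nudt2 (-0.68) and Ttpa (-0.69). Completing the 15 genes of this kind were Fkbp5, Plin4, Sult1a1, Cdkn1a, Camk1g, Gm19439, Hspa1b, Opalin, Aspa, Pllp and Serpinb1a. The last entered the test only through saline, where it was high, so its place here is no added support.

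Further large falls were those of Dlx1as, an antisense transcript of the Dlx1 locus, by 1.45 (SE 0.29, adjusted p = 0.0115), C630043F03Rik by 1.27, the adhesion molecule Cntn5 by 1.22, the D-aspartate oxidase Ddo by 1.19, the adhesion molecule Mcam by 1.12, Erdr1 by 1.12, Bnip5 by 1.04, Adamts20 by 1.03, C330018D20Rik by 0.94, Mob3b by 0.93 and the actin bundler Pls1 by 0.92. The probe sets of Erdr1 disagreed, the other being at 0.06. In Cntn5, Dlx1as and Adamts20 chronic replicate 2 lay nearer to saline than the other chronic arrays did.

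Further large rises were those of Zmym1 by 1.23, the transcriptional inhibitor Id1 by 1.04 (SE 0.20, adjusted p = 0.00885), Ppp2r5b, a phosphatase 2A subunit, by 1.03, Tinagl1 by 0.89 and Xdh, xanthine dehydrogenase, by 0.88. Net1, an exchange factor (difference 1.34), and 4930556N09Rik (0.91) were above the filter on no saline array, and Ddo, Bnip5 and Serpinb1a on no chronic array. These genes entered the test only through the group where they were high, and the size of each difference rests on values below the filter. For Ppp2r5b and Net1 saline replicate 1 was the lowest array, at 8.05 and 4.77.

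The chronic change was set against that in the 3 other strains. The contrast of the C57BL/6J change with the mean change of 129P3/J, DBA/2J and SWR/J, in the same limma fit, passed an adjusted p of 0.05 for 0 of 25792 probe sets (0%), and a fit without moderation also gave 0. An unadjusted p under 0.05 was reached by 2469 (9.57%), and the lowest adjusted p, 0.133, was that of Opalin. The count was 94 without chronic replicate 2, 20 without saline replicate 3 and 1 without saline replicate 1. With the replicate number as a fixed block within treatment it was 106, and with a random block of treatment and number 31. No gene is named as particular to C57BL/6J here, since the calls depend on these choices.

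Fkbp5 passed in each strain, with rises of 0.76 in 129P3/J (adjusted p = 0.000163), 0.62 in DBA/2J (adjusted p = 0.00675) and 0.58 in SWR/J (adjusted p = 0.0118) beside 0.75 in C57BL/6J. Zbtb16 rose by 1.75 in C57BL/6J and differed by 1.26, 1.00 and 1.01 in 129P3/J, DBA/2J and SWR/J, where it did not pass. Glucocorticoid-responsive genes had medians of 0.18, 0.15 and 0.15 in these strains beside 0.24.

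The oligodendrocyte list had medians of -0.20, -0.14 and -0.17 in 129P3/J, DBA/2J and SWR/J beside -0.37 in C57BL/6J. Opalin differed by -0.25, -0.36 and -0.19 there beside -1.15, a gap of -0.89 between C57BL/6J and the mean of the others (SE 0.16). Olig2 had differences of -0.73, -0.88 and -0.55 there beside -0.60, of which that in DBA/2J passed (adjusted p = 0.027). For Hspa1b the values were -0.08, 0.41 and -0.03 beside 0.96, and for Id1 0.05, 0.13 and -0.02 beside 1.04. The gap was 0.86 (SE 0.19, adjusted p = 0.221) for Hspa1b.

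Of the 303 genes called in C57BL/6J, 226 (74.6%) had the same sign in all 3 other strains, beside 36.7% of all 12747 genes. The arrays of those strains do not enter the C57BL/6J differences, though they entered the estimate of the spread behind the calls. Arrays of the same number deviated partly together between strains, as given next, so the agreement in sign is not independent support. Deviations of same-numbered arrays from their group means correlated between C57BL/6J and the mean of the other strains with r from 0.106 to 0.377 in saline and from -0.012 to 0.582 in chronic mice.

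**Figure D5:**
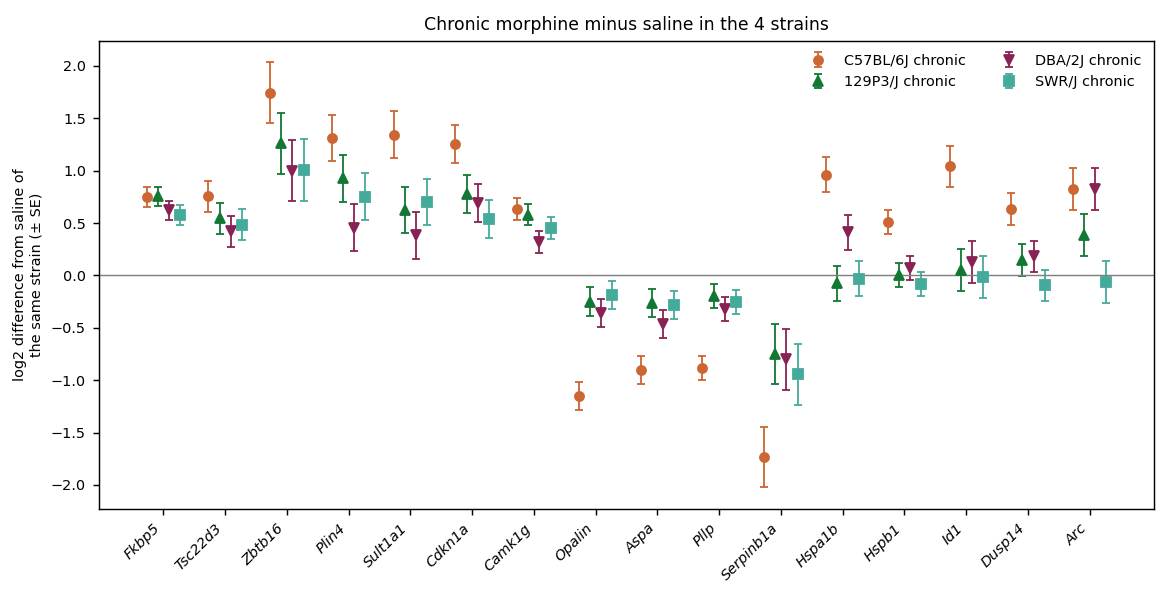
Log2 difference between chronic morphine and saline (vertical axis, ± SE of the limma fit, 3 arrays a group) for 16 genes in the 4 strains, each against saline of its own strain. Fkbp5 lay between 0.58 and 0.76 in all strains, while Opalin was at -1.15 in C57BL/6J and between -0.36 and -0.19 elsewhere.

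The single dose of 20 mg/kg was compared with the same 3 saline arrays, so its differences and those of the chronic regime share them and are given only side by side. The oligodendrocyte list had a median of -0.35 after acute and -0.37 after chronic morphine, and the glucocorticoid list one of 0.34 and 0.24. Fkbp5 differed from saline by 0.94 after acute and 0.75 after chronic morphine, Zbtb16 by 1.59 and 1.75, Cdkn1a by 1.80 and 1.25, Camk1g by 0.66 and 0.63, Opalin by -0.81 and -1.15, and Aspa by -0.80 and -0.90. None of these 6 genes passed in the direct contrast of chronic with acute morphine.

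That contrast called 63 probe sets (0.244%), of which 30 were higher and 33 lower after chronic morphine. Sgk1 had a mean of 10.06 after saline, 11.25 after the single dose and 10.46 after the chronic regime, a chronic minus acute difference of -0.79 (SE 0.15, adjusted p = 0.0163). Pdk4, the pyruvate dehydrogenase kinase, had a chronic minus acute difference of -0.94, with means of 7.05, 8.12 and 7.18 in the same order (adjusted p = 0.026). Plat, tissue plasminogen activator, had means of 8.69, 9.36 and 8.51 (adjusted p = 0.00286).

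In the other direction, Dusp14 had means of 9.89, 9.64 and 10.52, a chronic minus acute difference of 0.88 (adjusted p = 0.0121). Id3 had means of 9.14, 8.88 and 9.73 (adjusted p = 0.0121) and Ciart of 7.40, 7.27 and 8.18 (adjusted p = 0.0300). Hspb1 had means of 9.20, 9.19 and 9.71 (adjusted p = 0.0438). The number of calls in this contrast was 932 without chronic replicate 2, 15 without chronic replicate 1 and 4 without chronic replicate 3, and 4, 20 and 2 without acute replicates 1, 2 and 3.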

How the data were processed

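Total RNA of pooled striata was hybridised to Affymetrix mouse genome arrays. The deposited values are linear intensity values that the authors normalized between arrays and summarized by the dChip model, using mismatch as well as perfect match probes. The lowest value is 6.69, a floor. The intensities were turned to log2 here, with no pseudocount. Control probe sets were removed, and probe sets above a log2 signal of 6.64 on at least 3 of the 6 arrays were kept. The number of arrays limits the precision, and so do the estimate of the spread and the quality of single arrays.

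Groups came from the sample titles. A limma fit (limma 3.58.1, R 4.3.3) held 12 group means over all 36 arrays, with p-values adjusted by Benjamini-Hochberg and a threshold of 0.05. A gene was taken by its tested probe set of highest mean signal, and probe sets paired with several genes (567) or none (3497) were left out of gene counts. The fit was run on simulated data with independent noise of equal spread on all arrays. Such data lack the unequal array quality and shared deviations seen here, so they cannot show whether the calls hold. Genes were named by rule: the 15 largest rises and falls past the threshold with separate groups, up to 4 members past it in each list (or the 2 of largest difference), and genes the study names; others were added after their values were seen. The comparison and the 44 lists were chosen with earlier results of these data known. Alternatives were other filters, offsets, normalizations, samples, spread estimates, blocks and single arrays left out. Promoter windows came from RefSeq, and the motif GAANNTTC was added after the data were seen. Genes without a tested probe set under their symbol were not analysed here.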

Additional observations from a re-analysis of the deposited data

How the results depend on the processing

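Replicate numbers did not pair saline with chronic arrays, whose same-numbered deviations correlated with r of 0.062, -0.050 and -0.044. Between C57BL/6J and the mean of the other strains all 3 saline pairs were over 0.1 (0.106, 0.282 and 0.377), but 1 of the chronic pairs was not (0.291, 0.582 and -0.012). With the number as a replicate block, calls went from 522 to 0 for chronic morphine against saline (2450 at an unadjusted p under 0.05), from 0 to 106 for the contrast with the other strains and from 63 to 892 for chronic against acute morphine. The 522 calls became 152 with no filter on low values, 230 with array weights, 0 with the 6 arrays alone or the 9 C57BL/6J arrays, 44 at an adjusted p under 0.01 and 256 with a change of at least 1.5-fold, and ranged from 24 to 3018 when single arrays were left out. The strain contrast gave 2 with array weights, 31 with the number as a random block and 0 to 94 without single arrays. Chronic against acute morphine gave 37 with no filter, 106 after further quantile normalization, 0 with 9 arrays, 98 with a trended prior, 1032 with array weights, 114 with a random block and 2 to 932 without single arrays. Without single arrays, the 69 calls of list members ranged from 10 to 175, glucocorticoid genes higher from 3 to 7, heat shock higher from 1 to 3, oligodendrocyte lower from 4 to 20, sterol lower from 0 to 5, fatty acid lower from 0 to 9, activity-regulated higher from 0 to 11, clock higher from 0 to 4, and astrocyte higher from 0 to 3 and lower from 0 to 5. With probe sets averaged, 5 heat shock genes were higher and 1 astrocyte gene was lower. None of the 81 named genes past the threshold changed direction under the alternative filters, scalings, fits, blocks and left-out arrays. Averaging probe sets was run for the lists and not counted there. Filters, spread estimates and blocks keep the difference of group means, so under them the direction was fixed in advance. Of the 81, 0 stayed past the threshold with the 6 arrays alone or with the replicate block. It was 13 without chronic replicate 3, 19 without chronic replicate 1 and 24 without saline replicate 1. By contrast, it was 74 without saline replicate 3 and 81 without chronic replicate 2. Causes were not tested.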
